A study of Homo sapiens with 24 samples.

Results

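The 39 HOX genes of the human genome were followed in CAGE-Seq libraries of 4 established glioblastoma cell lines. They were taken as every row of the deposited table, which holds 43037 genes, whose identifier belongs to a symbol of the HOXA, HOXB, HOXC, or HOXD series. The lines were U87MG, T98G, U251MG, and DBTRG-05MG. Each was transduced with lentivirus at a multiplicity of infection of 1.5 and selected with 1 µg/mL puromycin, with 3 libraries per variant and 24 in all. The “WWOX” variant received a lentiviral vector with WWOX, a CMV promoter, GFP, and puromycin resistance. The “Vec” variant received a Puro-Blank control lentivirus, so all libraries come from infected and selected cells. Whether the control vector carries GFP is not given in the sources used here. Each line is a single established culture, and the media differed (MEM for T98G, RPMI 1640 for DBTRG-05MG, and EMEM for U87MG and U251MG), so line and medium cannot be told apart except between U87MG and U251MG, which share a medium, and the patient of origin of U87MG is not known with certainty. The methods call the 3 libraries biological replicates.

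HOX genes code for homeodomain transcription factors that give body segments their identity along the head-to-tail axis. They lie in 4 clusters that arose by duplication, and genes at matching places in different clusters form paralog groups, numbered from 1 at the end that is read early and anteriorly to 13 at the end that is read late and posteriorly. Polycomb complexes keep a silent cluster closed, MLL complexes keep an active one open, and retinoic acid opens the low-numbered end. PBX and MEIS proteins bind DNA together with HOX proteins. The adult forebrain is formed without HOX genes, whereas glioblastoma cells are known to read many of them.

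CAGE-Seq reads the capped 5′ end of a transcript, so each tag stands for a transcript start and levels are not divided by gene length. The unit is CPM, the tags of a gene per 1000000 tags on genes in a library. The libraries held between 10756072 and 16953689 tags, with a median of 14584829. Where no tag was counted, as many as 3 may have been missed by chance, equal to 0.177 to 0.279 CPM depending on the library; this limit covers counting error only. A gene with 3 tags or fewer in every library of a group is called at the limit there. Fewer cells reading a gene and less RNA per cell cannot be told apart in bulk libraries.

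On hg38 the HOXA cluster holds 11 genes on the minus strand of chromosome 7 (chr7:27092993-27200091). HOXB holds 10 genes on the minus strand of chromosome 17 (chr17:48528526-48728750). HOXC holds 9 genes on the plus strand of chromosome 12 (chr12:53938831-54056030), and HOXD holds 9 on the plus strand of chromosome 2 (chr2:176092721-176190907). In GENCODE 44, 24 of the 39 genes overlap another gene on the same strand and 25 overlap one on the opposite strand. HOXB4, HOXB5, and HOXB6 lie within or almost within the span of HOXB3, HOXB8 and HOXB9 lie within that of HOXB7, and 91.4% of the span of HOXA9 is shared. The gene models used for counting are not given in the sources used here, so for these genes a tag may have been assigned to a neighbor or left out.

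The promoters of 4 neighboring HOXD genes are shown because their levels differ widely over a short stretch of a single cluster. HOXD11 was read in all 24 libraries, HOXD10 and HOXD13 were read in some lines only, and HOXD12 was at the limit throughout. The sequences are the 250 bases before the RefSeq start (GRCh38.p14, plus strand, 5′ to 3′), in which GENCODE 44 places 0 exons. Capitals mark TATAAA, the TATA box letters, or TGATNNAT, a letter pattern of joint HOX and PBX binding, on either strand.
HOXD13, chr2:176092471-176092720: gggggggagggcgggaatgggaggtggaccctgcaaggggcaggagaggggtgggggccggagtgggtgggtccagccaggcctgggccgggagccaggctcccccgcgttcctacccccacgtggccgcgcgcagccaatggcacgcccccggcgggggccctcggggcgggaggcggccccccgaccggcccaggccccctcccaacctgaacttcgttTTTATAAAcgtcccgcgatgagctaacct
HOXD12, chr2:176099545-176099794: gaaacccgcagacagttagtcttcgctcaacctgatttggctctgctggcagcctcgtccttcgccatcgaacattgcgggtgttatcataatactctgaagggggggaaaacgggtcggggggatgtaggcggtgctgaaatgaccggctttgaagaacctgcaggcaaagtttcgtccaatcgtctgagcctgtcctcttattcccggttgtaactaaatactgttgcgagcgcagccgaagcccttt
HOXD11, chr2:176107030-176107279: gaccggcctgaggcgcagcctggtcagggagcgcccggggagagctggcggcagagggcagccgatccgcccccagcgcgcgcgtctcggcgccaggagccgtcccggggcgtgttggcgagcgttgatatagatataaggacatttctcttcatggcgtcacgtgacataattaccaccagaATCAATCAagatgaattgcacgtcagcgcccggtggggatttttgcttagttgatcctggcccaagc
HOXD10, chr2:176116528-176116777: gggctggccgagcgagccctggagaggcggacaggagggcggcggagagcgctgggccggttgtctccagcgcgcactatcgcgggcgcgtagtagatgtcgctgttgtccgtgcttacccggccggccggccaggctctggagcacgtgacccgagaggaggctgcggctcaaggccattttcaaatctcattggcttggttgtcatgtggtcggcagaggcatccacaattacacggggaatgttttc

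The HOXD13 window holds TATAAA from 27 to 22 bases before the start, overlapped by its reverse complement TTTATA. The HOXD11 window holds the reverse complement of TGATNNAT from 67 to 60 bases before the start. Neither pattern was found in the HOXD12 and HOXD10 windows. Among 35116 RefSeq promoters of the same length, 10.7% hold TATAAA and 6.47% hold TGATNNAT on either strand. The windows hold 21, 16, 23, and 23 CpG in the order shown, above the median of 11 over all promoters. RefSeq promoters were matched for 20 of the 39 genes, in 27 entries.

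Of the 39 genes, 5 were above 3 tags in every library: HOXA3, HOXB4, HOXC4, HOXC6, and HOXD11. There were 6 at the limit in all 24 libraries: HOXA6, HOXA9, HOXA11, HOXB1, HOXC12, and HOXD12, none with more than 2 tags in any library. DBTRG-05MG had 22 genes above 3 tags in all 6 libraries, U251MG had 21, T98G had 19, and U87MG had 15. The number at the limit in all 6 was 11, 13, 9, and 17 in the same order. A filter of 5 CPM in at least 1 library left 12327 genes of the table for testing and 20 of the 39 HOX genes, which were 2 of HOXA, 9 of HOXB, 5 of HOXC, and 4 of HOXD. The other 19 reached at most 4.95 CPM (HOXA10 in DBTRG-05MG) and are given by level only.

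**Figure D1:**
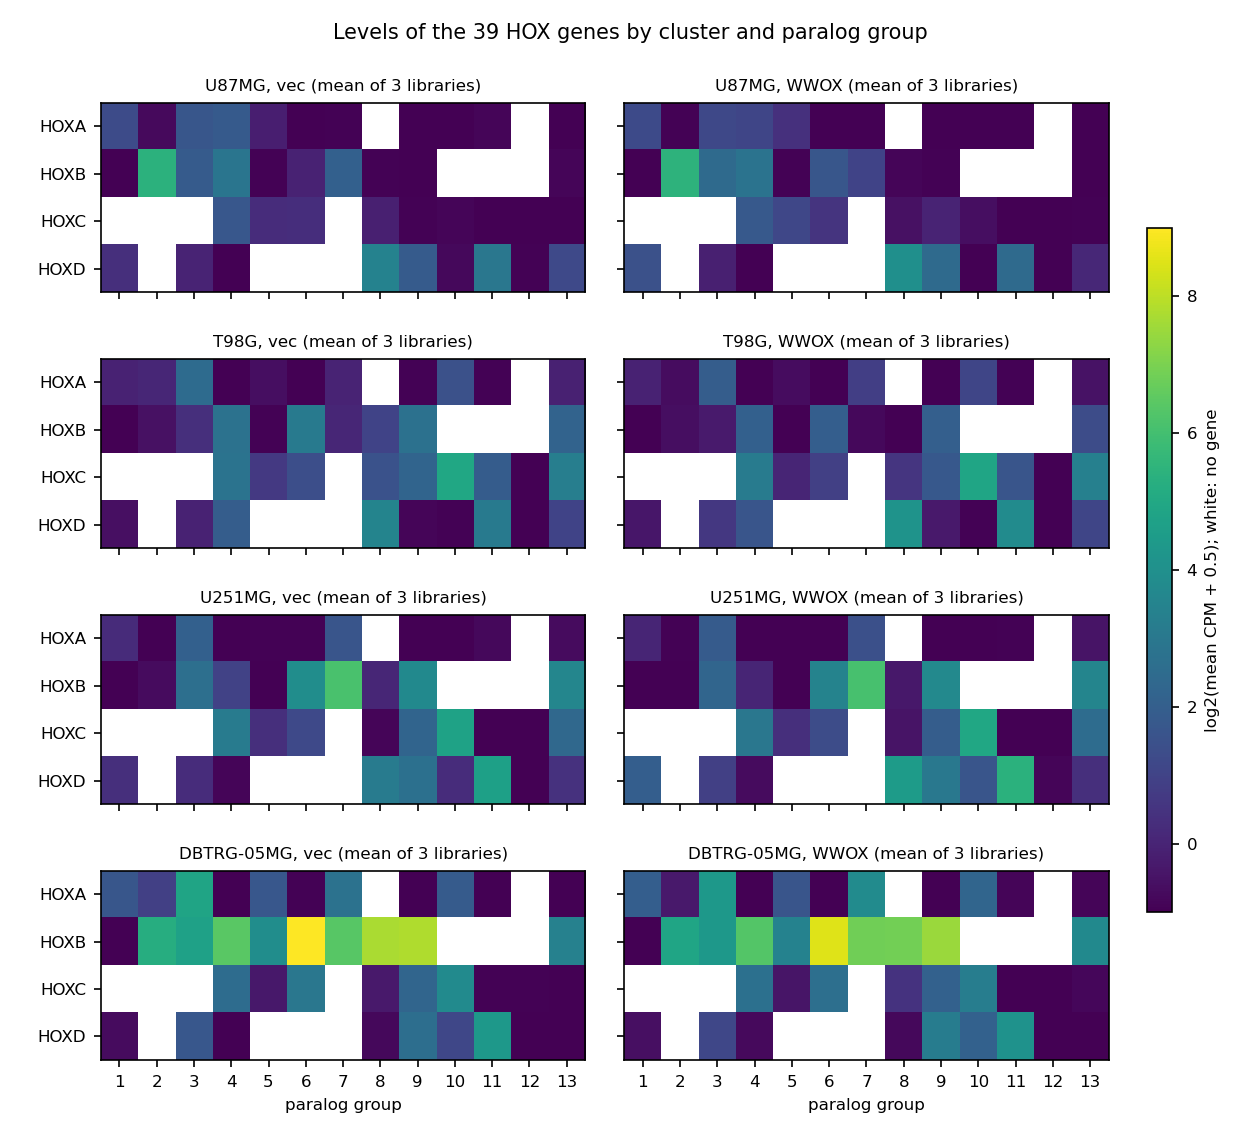
Each square is the log2(mean CPM + 0.5) of a HOX gene over 3 libraries, with the 4 clusters as rows and paralog groups 1 to 13 as columns, white where a cluster has no such gene; the left column holds the vec groups and the right column the WWOX groups. The band of 9 HOXB genes in DBTRG-05MG is the brightest, U87MG is dark in HOXC, and in both variants of U87MG the brightest square is HOXB2.

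Summed over the 39 genes, the HOX level of DBTRG-05MG averaged 1167 CPM and ran from 996 to 1468 CPM over its 6 libraries. U251MG averaged 227 CPM (151 to 298), T98G 117 CPM (106 to 134), and U87MG 96.8 CPM (88.4 to 106). Every DBTRG-05MG library was therefore above every library of the other lines, while U87MG and T98G met at 106 CPM. The clusters shared this sum differently. HOXB gave 91% of the HOX tags in DBTRG-05MG, 59.6% in U87MG, 50.1% in U251MG, and 17.3% in T98G. HOXC gave 49.0% in T98G and 5.76% in U87MG. HOXD averaged between 25.6% and 27.1% in U87MG, T98G, and U251MG and 2.67% in DBTRG-05MG. These shares are means over both variants and hide wide ranges. The HOXD share ran from 17.1% to 40.2% over the U251MG libraries. In T98G it averaged 20.3% in vec and 32.7% in WWOX, and the HOXB share 22.7% and 12.0%. HOXA gave between 3.01% (U251MG) and 7.49% (U87MG).

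The mean paralog number, weighted by CPM, placed the lines in the order U87MG (4.43, from 4.11 to 4.62 over 6 libraries), DBTRG-05MG (6.70, from 6.46 to 6.84), U251MG (8.26, from 7.96 to 8.49), and T98G (8.60, from 8.37 to 8.86). U251MG and T98G overlapped, and no other pair did. In U87MG the anterior groups 1 to 3 held 52.9 of 96.8 CPM, whereas in T98G the posterior groups 9 to 13 held 68.5 of 117 CPM. These are descriptions of levels and were not tested.

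**Figure D2:**
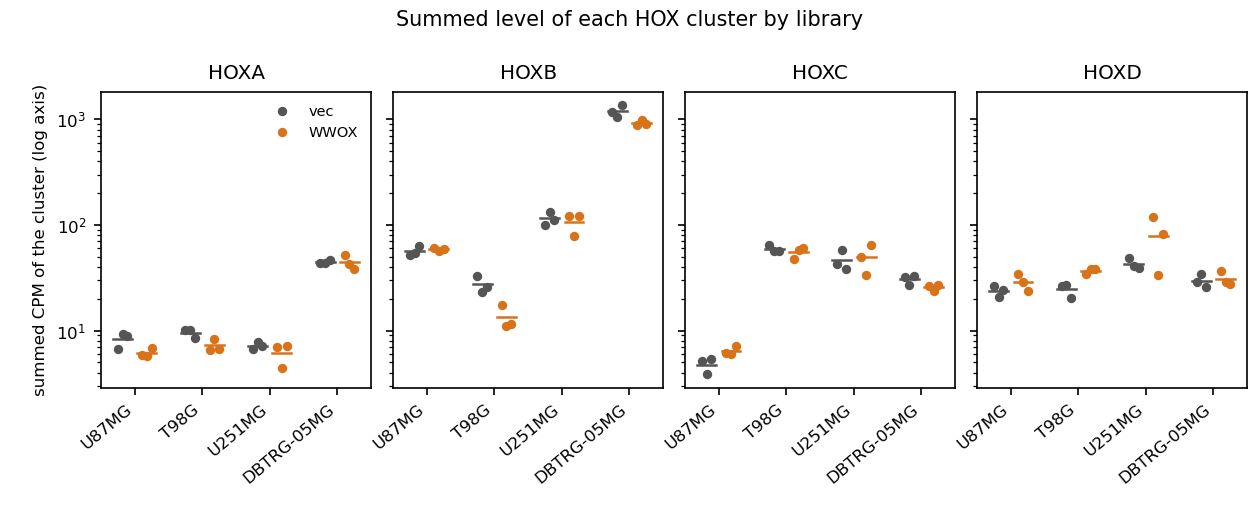
Each point is the summed CPM of a cluster in a library on a log axis, with vec in gray, WWOX in orange, and bars at the means of 3. HOXB in DBTRG-05MG lies between 895 and 1362 CPM, HOXC in U87MG lies between 3.86 and 7.11 CPM, and HOXB in T98G is lower in WWOX (11.1 to 17.5 CPM) than in vec (23.4 to 33.2 CPM).

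DBTRG-05MG stood out by its HOXB genes. HOXB6, a paralog of the central groups, measured 350 to 541 CPM with a median of 433, against 0.213 to 18 CPM in the 18 libraries of the other lines. HOXB9, which patterns the trunk, measured 163 to 264 CPM with a median of 185. HOXB8 measured 66.5 to 339 CPM with a median of 140, the widest spread of these genes. All 3 were therefore well above the other lines, where the highest library reached 17.8 CPM for HOXB9 and 2.67 CPM for HOXB8. HOXB7 measured 76.9 to 119 CPM (median 96.1) and HOXB4 66.3 to 94.9 CPM (median 82.2). HOXB5 measured 7.73 to 19.8 CPM (median 11.8) and was at the limit in the other 3 lines, so its mean was at least 55.9-fold higher than in T98G and at least 57.0-fold higher than in U251MG. Together 9 of the 10 HOXB genes passed 3 tags in all 6 libraries, and HOXB1, which specifies a single hindbrain segment, had 0 tags.

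The HOXA genes of DBTRG-05MG were also high for their cluster. HOXA3, which patterns the throat region, measured 15.3 to 28.9 CPM (median 27.6) and was the highest HOXA gene, against 1.43 to 6.52 CPM elsewhere. HOXA7 measured 5.60 to 16.7 CPM (median 9.57) and at most 3.58 CPM elsewhere. In contrast, HOXD8 was at the limit in 5 of the 6 libraries and had 4 tags in the other, from 0 to 0.258 CPM, while it measured between 6.29 and 42.7 CPM in the other lines. HOXC13 and HOXD13, the posterior end of their clusters, had at most 0.194 CPM and 0 tags.

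In U87MG the anterior groups held 52.9 of 96.8 CPM, of which HOXB2 gave 42.7 CPM. HOXB2, which acts in the hindbrain, was its highest HOX gene with 37.9 to 45.3 CPM (median 43.6). DBTRG-05MG had 23.5 to 43.5 CPM of it (median 32.2), while T98G and U251MG had at most 0.281 CPM. HOXA4 was counted in U87MG alone, with 1.22 to 4.25 CPM, and had 0 tags in all 18 other libraries, which makes its mean at least 10.6-fold higher than in T98G and at least 12.1-fold higher than in DBTRG-05MG. HOXD8 (7.80 to 20.2 CPM), HOXB4 (5.38 to 8.21 CPM), and HOXD11 (4.41 to 7.80 CPM) followed. At the posterior end HOXB9, HOXB13, and HOXC13 were at the limit, and HOXC10 had 0 to 0.339 CPM. Of the 16 posterior genes 11 were at the limit, and 3 were above 3 tags in all 6 libraries, all of HOXD. These were HOXD11, HOXD9 (1.75 to 5.75 CPM), and HOXD13 (0.551 to 2.17 CPM).

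T98G was read at the posterior end of HOXC. HOXC10, a gene of the lumbar region, measured 25.4 to 35.6 CPM (median 29.3). HOXC13, which acts in hair and nail, measured 7.90 to 11 CPM (median 9.66). U251MG shared this in part, with HOXC10 at 21.2 to 37.0 CPM and HOXC13 at 3.88 to 7.57 CPM. HOXC11 measured 2.31 to 3.74 CPM and was at the limit in the other 3 lines. HOTAIR, a noncoding RNA read from the opposite strand beside HOXC11, measured 5.13 to 10.4 CPM in T98G and at most 0.206 CPM elsewhere. These neighbors thus shared a line. HOXD8 (8.80 to 18.1 CPM, median 15.1) and HOXD11 (5.14 to 16.4 CPM, median 11.2) were next in T98G, while HOXD9, which lies between them, had 0 to 0.372 CPM and HOXD10 was at the limit.

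U251MG was led by HOXB7 with 46.8 to 81.8 CPM (median 72.1), which at its level was closer to DBTRG-05MG than to U87MG (1.22 to 4.98 CPM) or T98G (0.066 to 1.12 CPM). Next were HOXD11 with 13.8 to 59.7 CPM (median 27), HOXC10 with 21.2 to 37.0 CPM (median 28.3), and HOXD8 with 6.29 to 42.7 CPM (median 9.15). HOXB4 was lower in U251MG than in any library of the other lines, at 0.274 to 2.07 CPM. HOXB5 had 0 tags in all 6 libraries.

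**Figure D3:**
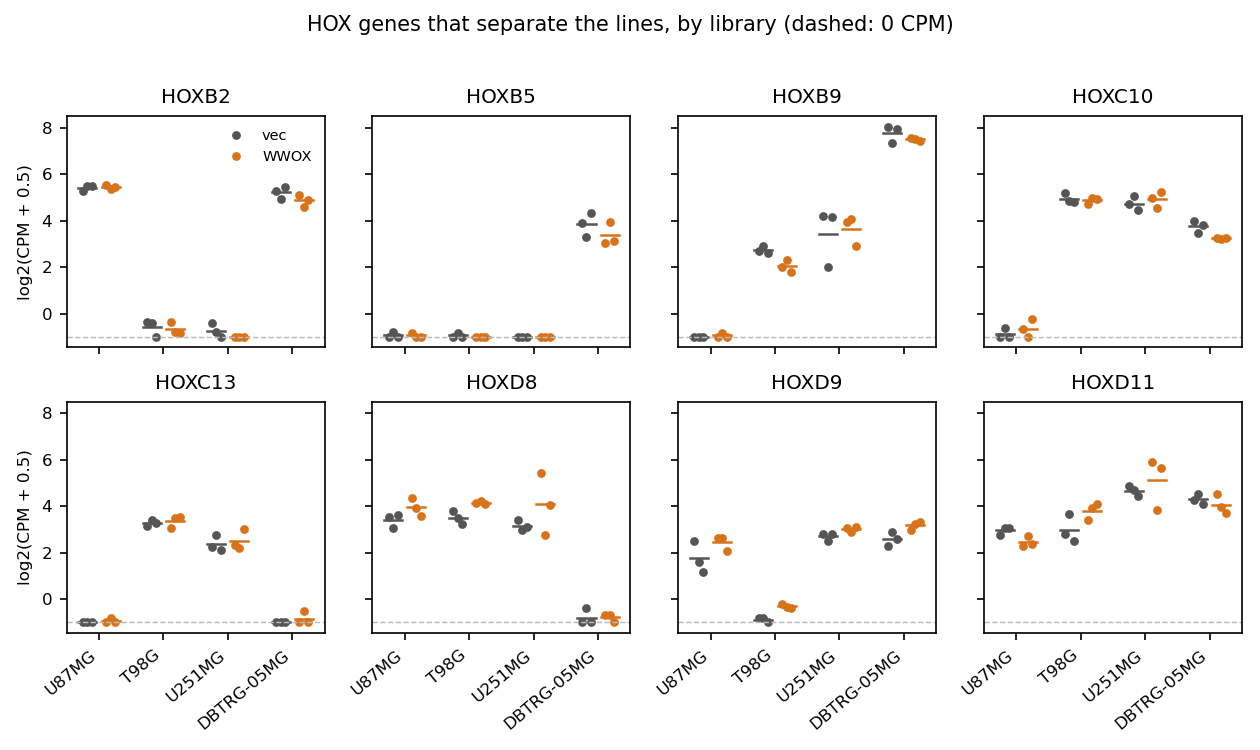
Points show log2(CPM + 0.5) in each library of 8 HOX genes, vec in gray and WWOX in orange, with bars at the means of 3 and a dashed line at 0 CPM. HOXB2 separates U87MG and DBTRG-05MG from T98G and U251MG, HOXB5 is seen in DBTRG-05MG, HOXC10 is missing in U87MG, HOXD8 is missing in DBTRG-05MG, and HOXD9 is near 0 in T98G.

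The question of how the lines differ before WWOX was put on the vec libraries by a limma model of log2(scaled CPM + 0.5) over 8 groups, with two-sided p adjusted by the Benjamini-Hochberg method over the 12327 genes. Of all genes tested, 66.9% differed between the 4 vec groups at an adjusted p of 0.05. All 20 HOX genes tested were among them, but a gene that entered through a line where it is high had to differ, so the number is not a result about HOX genes. The pairs of lines were compared in the same 20 genes. U87MG and T98G differed in 15 of the 20 genes (39.8% of all genes tested), U87MG and U251MG in 16 (38.6%), and U87MG and DBTRG-05MG in 16 (44.1%). T98G and DBTRG-05MG differed in 18 (41.2%), U251MG and DBTRG-05MG in 13 (31.6%), and T98G and U251MG in 10 (32.3%). The filter favors high counts here as well, so these counts describe the levels and are not a result about HOX genes. In the WWOX libraries the share of all genes tested that was called was 40.9% for U87MG and T98G, 41.4% for U87MG and U251MG, and 47.1% for U87MG and DBTRG-05MG. It was 39.5% for T98G and U251MG, 44.3% for T98G and DBTRG-05MG, and 37.8% for U251MG and DBTRG-05MG.

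Some neighbors in the order of the lines could not be separated. HOXB2 was 42.3 ± 3.80 CPM (SD, n = 3) in U87MG vec and 37.2 ± 6.63 CPM in DBTRG-05MG vec, a log2 difference of 0.41 with an adjusted p of 0.16 in limma. HOXB7 in DBTRG-05MG and U251MG differed by 0.24 on the log2 scale (adjusted p = 0.59, limma). HOXC9, read at 4.15 to 4.30 CPM in T98G, U251MG, and DBTRG-05MG, differed by 0.16 and 0.01 between neighbors (adjusted p = 0.66 and 0.98, limma), and by 3.08 between the lowest of them and U87MG. HOXD8 in T98G, U87MG, and U251MG differed by at most 0.40 between neighbors (adjusted p = 0.87 and 0.41, limma), and by 3.92 between U251MG and DBTRG-05MG. For HOXC10 the step from T98G to U251MG was 0.37 (adjusted p = 0.24), the step to DBTRG-05MG was 1.03 (adjusted p = 0.0016), and the step to U87MG was 4.51 (limma). HOXC4, a gene of the neck region, had no step past the threshold between any neighbors, with adjusted p of 0.72, 0.22, and 0.11 in limma.

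Most differences between lines called in vec were also called in the WWOX libraries, which share no library with vec. Over 20 genes and 6 pairs of lines there were 120 comparisons, of which 88 were called in vec and 86 in WWOX. Of these, 81 were called in both, all 81 with the same sign, and 27 were called in neither. HOXB8, U87MG minus T98G, was called in vec only (log2 difference -1.92 in vec and 0.15 in WWOX). HOXB2, U87MG minus DBTRG-05MG, was called in WWOX only (0.41 in vec and 0.80 in WWOX). The counts rest on the same filtered genes and lines, and the share of all genes called in both is not given here. They describe the levels only. Counts of genes set apart in a line are also shaped by the filter, since a gene such as HOXB5 entered through the line where it is high, so they describe the levels and are not a result about HOX genes. Over all 6 libraries of a line, 9 of the 20 genes in DBTRG-05MG lay above all 18 other libraries (5.54% of all genes tested) and 1 below them (2.71%). In U87MG 1 lay above (4.66%) and 6 below (5.91%), in T98G 1 above (3.93%) and 3 below (3.08%), and in U251MG 0 above (2.18%) and 1 below (2.0%). The largest gaps of such genes were 4.18 for HOXB6, 4.06 for HOXB8, and 3.58 for HOXB5 in DBTRG-05MG, and 3.2 for HOXC10, 2.65 for HOXB9, and 1.84 for HOXB13 in U87MG, on the log2 scale. For T98G they were 1.31 for HOXD9 and 0.67 for HOXB3, both below, and 0.47 for HOXC13 above, and for U251MG 0.25 for HOXB4 below. The U251MG gap was the smallest of those named.

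WWOX is the gene under study, and its own tags were examined next. Its level was higher in every WWOX library than in every vec library of U87MG and of DBTRG-05MG, but the groups overlapped in T98G and U251MG, and no line passed the threshold (adjusted p from 0.14 in U87MG to 1.0 in U251MG, limma). Transcripts of the vector begin in vector sequence, and whether their tags were counted to WWOX is not given in the sources used here, so the level does not settle the labels. The U251MG library labelled WWOX replicate 2 measured 17.4 CPM, below all 3 vec libraries of that line (31.4 to 36.8 CPM), and it also held the lowest HOX sum of U251MG, 151 CPM. Results that change without it are given both ways below.

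The HOX genes called between vec and WWOX in limma were HOXB6 and HOXB8. With 3 libraries per group, a gene that was not called may still differ. T98G had 2 of the 20 HOX genes tested past the threshold (1.14% of all genes tested), U87MG had 1 (3.2%), and U251MG and DBTRG-05MG had 0 (0.316% and 1.02%). Before adjustment, the limma p was under 0.05 for 9 of the 20 in T98G, 5 of 20 in U87MG, and 3 of 20 in U251MG. In each of these lines the share of all genes tested was 11.5%. In DBTRG-05MG it was under 0.05 for 7 of 20, beside 7.63%. Tests of the recovered tags by edgeR, DESeq2, and limma-voom also called 0 in U251MG and in DBTRG-05MG. On the scaled values, libraries of vec and WWOX did not overlap for 10 of the 20 genes in DBTRG-05MG (19.7% of all genes tested). The same held for 9 of 20 in T98G (16.2%), 6 of 20 in U87MG (17.5%), and 2 of 20 in U251MG (10.4%). An exact two-sided permutation test of 3 against 3 libraries cannot give a p under 0.1. Without the U251MG library labelled WWOX replicate 2, HOXD8 and HOXD10 were called in U251MG, and 6 HOX genes in place of 1 were called for the mean of the lines. The share of all genes called without that library is not given here, so this rise is not a result about HOX genes.

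HOXB6 rose with WWOX in U87MG and fell in T98G. In U87MG its vec libraries measured 0.213, 0.618, and 0.561 CPM and its WWOX libraries 2.57, 2.65, and 2.79 CPM. Every WWOX library was above every vec library, and the log2FC was 1.74 with a standard error of 0.23 (adjusted p = 3.0e-05, limma). In T98G the vec libraries measured 8.72, 7.64, and 7.71 CPM and the WWOX libraries 4.74, 2.75, and 2.97 CPM, a log2FC of -1.13 with a standard error of 0.23 (adjusted p = 0.015, limma). The groups again did not overlap, in the other direction. In DBTRG-05MG, where HOXB6 is the highest HOX gene, vec measured 473, 541, and 510 CPM and WWOX 362, 393, and 350 CPM. Those groups were also apart, with a log2FC of -0.53 and a standard error of 0.23, but the adjusted p was 0.57 in limma. That standard error is pooled over all groups and is the same in each line, so it does not measure the spread within DBTRG-05MG. In U251MG vec measured 10.5, 18, and 15.1 CPM and WWOX 11.9, 7.72, and 12.6 CPM, which overlap as CPM though not after scaling. The test of the difference between lines called HOXB6 (adjusted p = 1.99e-05, limma F test), as it did 3.5% of all genes tested, and it called none of the other 19 HOX genes, 7 of the 20 having an unadjusted p under 0.05 (14.6% of all genes tested). The call in T98G was lost when vec replicate 1 was left out (adjusted p = 0.11), and with vec replicate 3, WWOX replicate 2, or WWOX replicate 3 left out it was 0.077, 0.080, and 0.13.

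HOXB8, a central gene that lies inside the span of HOXB7, was lost in T98G. Its vec libraries measured 2.67, 0.940, and 0.934 CPM, and its 3 WWOX libraries had 0 tags, so the WWOX level was at least 6.50-fold lower against a limit of 3 tags per library. The fitted log2FC was -1.98 with a standard error of 0.37 (adjusted p = 0.0069, limma). Without vec replicate 1, the highest of the 3, the adjusted p was 0.090. In DBTRG-05MG, which had by far the highest level, vec measured 196, 92.8, and 339 CPM and WWOX 66.5, 164, and 115 CPM. Those groups overlapped, and the log2FC was -0.83 with a standard error of 0.37 (adjusted p = 0.59, limma). In U251MG vec measured 0.324, 0.637, and 0.737 CPM and WWOX 0.206, 0.143, and 0.473 CPM. Averaged over the 4 lines, HOXB8 was the 1 HOX gene past the threshold (1.78% of all genes tested), 8 having an unadjusted p under 0.05 (15.4%), with a mean log2FC of -0.80 and a standard error of 0.19 (adjusted p = 0.024, limma). It was lower in 3 of 4 lines, since it was at the limit in both variants of U87MG, and the exact permutation of labels within lines gave an unadjusted p of 0.0048, the smallest possible being 1.25e-05. The call of the mean was lost without U251MG vec replicate 3 (adjusted p = 0.055) and without DBTRG-05MG vec replicate 1 (0.052), and edgeR and limma-voom did not make it (0.28 and 0.053).

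**Figure D4:**
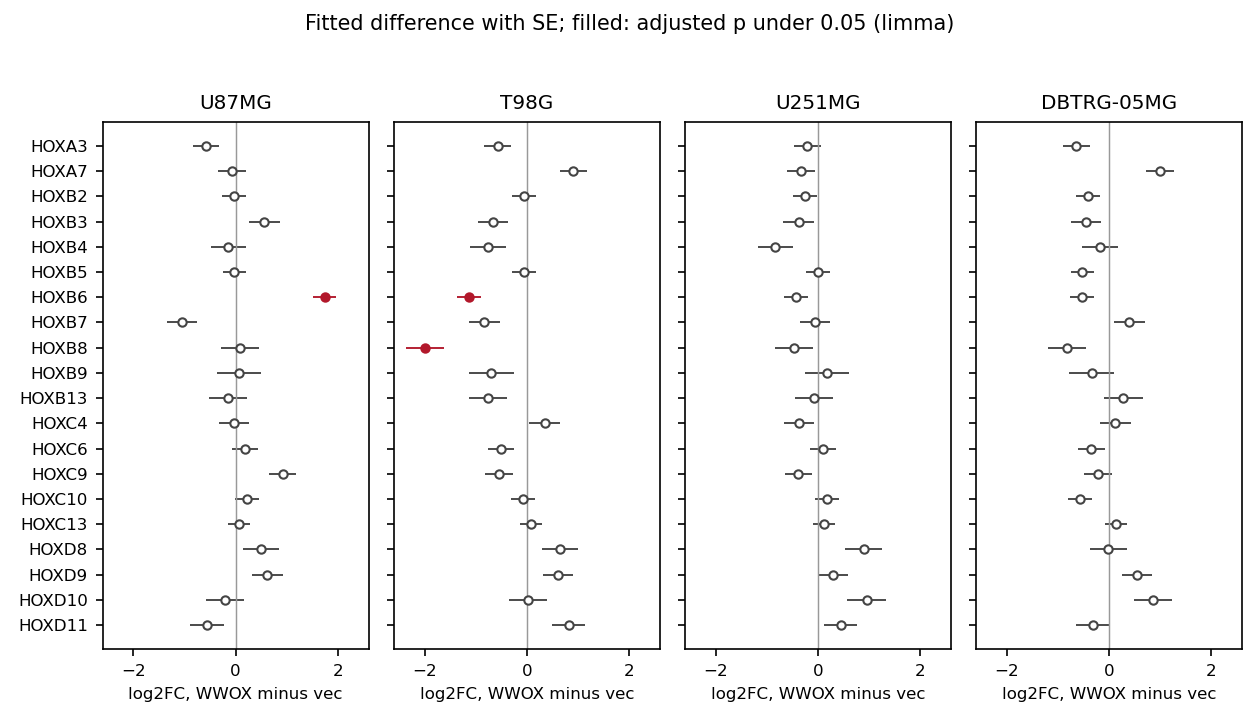
The log2FC of WWOX against vec is shown with its standard error for the 20 tested HOX genes in each line, filled in red where the adjusted p is under 0.05. The filled points are HOXB6 in U87MG (1.74) and HOXB6 and HOXB8 in T98G (-1.13 and -1.98); in T98G all 9 HOXB genes lie left of 0.

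In T98G, HOXB6 and HOXB8 were the 2 of the 9 tested HOXB genes past the threshold. All 9 had a negative log2FC, from -1.98 to -0.05, with a median of -0.76 against -0.04 over all genes tested. HOXB2 and HOXB5, the values nearest to 0, had at most 4 tags in any T98G library. Beside HOXB6 and HOXB8, HOXB7 went from 1.12, 0.251, and 0.311 CPM to 0.093, 0.074, and 0.066 CPM, at least 2.41-fold lower by the limit of 3 tags, with an adjusted p of 0.23 in limma. HOXB9 went from 5.91, 6.89, and 5.53 CPM to 3.53, 4.38, and 2.97 CPM without overlap. Of all 736 tested genes of chromosome 17, HOXB included, 82.6% had a negative log2FC in T98G. Its other 727 tested genes had a median log2FC of -0.35, and the 8 tested genes that flank HOXB had a median of -0.33 with 8 of 8 negative. Of the 9 HOXB genes, 7 lay below the chromosome's median. The part that the chromosome has in the HOXB values was not tested. The cluster summed to 27.5 ± 5.09 CPM in vec against 13.4 ± 3.55 CPM under WWOX (SD, n = 3 each), while HOXC was 59.2 ± 4.75 and 55.4 ± 6.84 CPM.

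The other lines gave smaller HOXB medians. In DBTRG-05MG its median log2FC was -0.42 beside 0.01 for the other genes of chromosome 17, 7 of 9 being negative, and in U251MG it was -0.26 beside -0.05, also with 7 of 9. In U87MG it was -0.02, with 5 of 9. The U251MG median is the value of HOXB2 and the U87MG median that of HOXB5, each at the limit in that line. HOXB8, HOXB9, and HOXB13 were also at the limit in U87MG, and HOXB5 in U251MG. These medians therefore say little about the cluster in U251MG and U87MG. HOXB7 in U87MG went from 4.40, 1.78, and 4.98 CPM to 2.08, 1.22, and 1.27 CPM, a log2FC of -1.05 with a standard error of 0.30 that missed the threshold (adjusted p = 0.059, limma). HOXB7 in DBTRG-05MG went from 85.9, 86.4, and 76.9 CPM to 106, 119, and 119 CPM, without overlap. Over the 4 lines, 9 of 9 HOXB genes had a negative mean, with a median of -0.20. The median was -0.13 over all tested genes of chromosome 17, of which 71.5% were negative, and -0.01 over all genes tested, of which 52.0% were negative.

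**Figure D5:**
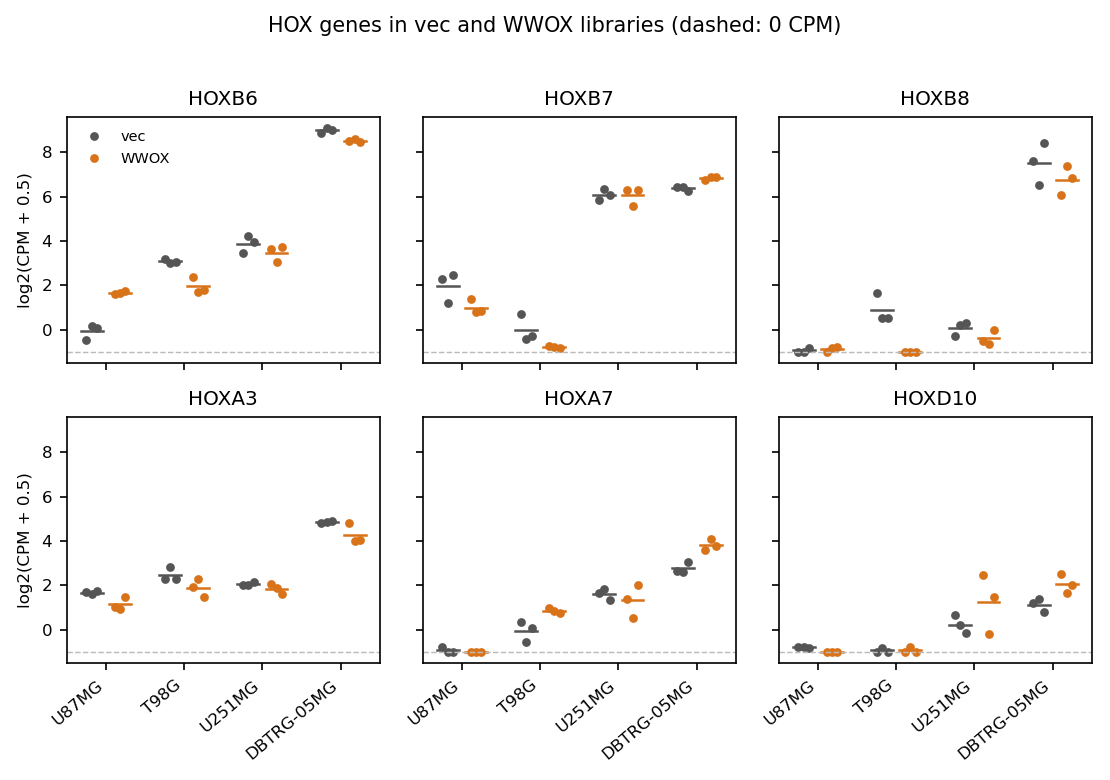
Points show log2(CPM + 0.5) by library for 6 HOX genes, vec in gray and WWOX in orange, with bars at the means of 3 and a dashed line at 0 CPM. HOXB6 rises in U87MG and falls in T98G, HOXB8 drops to the dashed line in T98G, and the WWOX points of HOXD10 in U251MG spread from 0.358 to 5.08 CPM.

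The HOXD values were positive in some lines. All 4 tested members had a positive log2FC in T98G (median 0.63) and in U251MG (median 0.67), and over the 4 lines the median of their means was 0.46. None passed the threshold. In T98G, HOXD10 was at the limit and HOXD9 had at most 4 tags in any library. The T98G median lies between HOXD9 (0.62) and HOXD8 (0.65), so it rests in part on these few tags. Beside these medians the other genes of chromosome 2 had 0.02 in T98G and 0.08 in U251MG, and the 2 tested genes that flank HOXD had a median of 0.46 in T98G. In U251MG the median was 0.33 without WWOX replicate 1 and 1.10 without WWOX replicate 2. HOXD8 in T98G went from 13.4, 10.7, and 8.80 CPM to 16.8, 18.1, and 16.8 CPM, without overlap. In U251MG it went from 10.1, 7.32, and 8.17 CPM to 42.7, 6.29, and 16.0 CPM, where the low WWOX value belongs to replicate 2. The high one belongs to replicate 1, whose GFAP, the astrocyte filament, measured 114 CPM against 2035 to 3226 CPM in the other 5 libraries of the line. SOX2, a stem cell factor, measured 268, 31.0, and 266 CPM in WWOX replicates 1 to 3 and 71.3, 172, and 50.8 CPM in vec (adjusted p = 0.71, limma). The HOXD sum was highest in WWOX replicate 1 (120 CPM) and lowest in WWOX replicate 2 (33.6 CPM), and at most 48.2 CPM in vec. The part of GFAP and SOX2 in the HOXD values was not tested. HOXD9, a gene of limb and lower trunk, was higher on average in 4 of 4 lines, with a mean log2FC of 0.52 and a standard error of 0.15 (adjusted p = 0.081, limma). In DBTRG-05MG it went from 4.32, 6.89, and 5.47 CPM to 7.37, 8.94, and 9.53 CPM. HOXD10 went from 1.77, 2.12, and 1.25 CPM to 5.25, 2.59, and 3.56 CPM in DBTRG-05MG, with a log2FC of 0.86 and a standard error of 0.37 (adjusted p = 0.55, limma). HOXD11 was not uniform, with a log2FC of 0.82 in T98G, and its U87MG libraries went from 6.32, 7.80, and 7.79 CPM to 4.41, 6.11, and 4.66 CPM.

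The HOXA and HOXC genes gave no call. HOXA3 was lower on average in 4 of 4 lines, with a mean log2FC of -0.50 and a standard error of 0.13, just short of the threshold (adjusted p = 0.054, limma). In DBTRG-05MG it measured 27.8, 28.5, and 28.9 CPM in vec and 27.5, 15.3, and 16.0 CPM in WWOX, so the groups were apart, though narrowly. HOXA7 in DBTRG-05MG went from 5.70, 5.60, and 7.71 CPM to 11.4, 16.7, and 13.2 CPM without overlap, a log2FC of 0.99 with a standard error of 0.27 that did not pass (adjusted p = 0.091, limma). HOXC9 in U87MG went from 0.071 CPM and 2 libraries with 0 tags to 0.612, 0.611, and 0.254 CPM, at least 2.25-fold higher by the limit of 3 tags (adjusted p = 0.071, limma), and it was called by edgeR, limma-voom, and DESeq2. HOXC10 in DBTRG-05MG measured 15.5, 10.4, and 13.4 CPM in vec and 9.14, 8.62, and 9.12 CPM in WWOX, with a log2FC of -0.57 (adjusted p = 0.48, limma). The other genes of chromosome 12 had a median of -0.20 in that line and the HOXC genes a median of -0.22.

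Genes that work with or on the HOX clusters were counted beside the share of all genes tested that was called, which was 0.316% to 3.2% within lines, 1.78% for the mean of the lines, and 3.5% for the difference between lines, so lists of this size would hold few calls in any case. Among the TALE cofactors, which include PBX and MEIS proteins, 0 of 8 tested passed the threshold in any line, on average, or between lines in limma. The same held for 0 of 18 tested Polycomb genes and 0 of 13 MLL and H3K27 demethylase genes. Their median log2FC lay between -0.36 (TALE cofactors in T98G) and 0.13 (MLL list in DBTRG-05MG). Of the retinoic acid genes, 12 of 17 were tested. STRA6, the retinol uptake receptor, was lower in U87MG (log2FC -1.19, adjusted p = 0.020, limma). The 5 CDX and EVX genes were too low to be tested. Of 10 forebrain and midbrain factors 4 were tested, and SIX3 was higher in DBTRG-05MG (log2FC 1.07, adjusted p = 0.0095, limma) and was called between lines, while OTX1 was higher on average.

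The noncoding RNAs of the clusters had line patterns of their own. Of 20 listed, 18 were in the table and 10 were tested. HAGLROS, at the HOXD cluster, measured 17.5 to 28.0 CPM in DBTRG-05MG and was at the limit in the other 3 lines, and HOXB-AS1, opposite HOXB2, measured 3.41 to 12.6 CPM in U87MG and 0.685 to 2.11 CPM in DBTRG-05MG, the lines that read HOXB2. HOXD-AS2, opposite HOXD8, was highest in T98G with 7.96 to 24.6 CPM. HOXB-AS3, opposite HOXB6, was the 1 RNA that passed the threshold for WWOX, lower in DBTRG-05MG (log2FC -1.0, adjusted p = 0.030, limma; 1.02% of all genes tested were called in that line), where it measured 1.49 to 6.78 CPM.

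The labelled glial origin was checked against markers. GFAP averaged 2302 CPM in U251MG and at most 5.23 CPM in the other 3 lines, and SOX2 averaged 143 CPM in U251MG and at most 0.297 CPM in U87MG and T98G. In DBTRG-05MG, SOX2 measured 43.9 to 52.4 CPM in vec and 74.0 to 90.5 CPM in WWOX (adjusted p = 0.86, limma). AQP4 was at the limit or near it in every line, with a mean of 0.52 CPM at most. Of the 12 glial markers listed, 9 were tested, and ALDH1L1 was called higher in U87MG and lower in DBTRG-05MG. A mean of at least 5 CPM was reached by 8 of the 12 in U251MG, 6 in DBTRG-05MG, 4 in U87MG, and 2 in T98G. The immune markers PTPRC, AIF1, and TYROBP were at or near 0. Of the 5 immune markers listed, all 5 were at the limit in T98G and DBTRG-05MG, and 4 in U251MG. In U87MG 3 were at the limit and 1 had a mean of at least 5 CPM, and the 5 summed to 6.06 to 15.1 CPM. The fibroblast marker COL1A1 measured 157 to 500.4 CPM in U87MG vec and 59.1 to 147 CPM in U87MG WWOX, where it was called (adjusted p = 0.041, limma). Of the 6 fibroblast markers tested, COL1A1, COL1A2, DCN, and LUM were called in U87MG, 2 higher and 2 lower. The epithelial marker KRT18 averaged 837 CPM in DBTRG-05MG. Of the 5 epithelial markers, 2 had a mean of at least 5 CPM in DBTRG-05MG and 1 in T98G, where the 5 summed to 152 to 391 CPM. The part of these differences in the HOX levels was not tested.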

How the data were processed

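CAGE-Seq libraries of 4 cell lines were analyzed in 8 groups of 3. The authors aligned 75-nt reads to hg38 with STAR and counted tags per gene; the gene models and the aligner's version are not given in the sources used here. The deposited values are CPM with a total of 1000000 per library. All were whole tags divided by the library total (100% within 0.01 tag), so tags were recovered. There were 0 sample columns not used. Symbols and positions came from GENCODE 44 (43033 of 43037 genes matched), and promoters from RefSeq.

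Libraries were brought to a common scale with unweighted TMM factors (30% of M and 5% of A trimmed). Genes with 5 CPM in at least 1 library were tested with limma 3.58.1 (trend, 16 residual degrees of freedom) on log2(scaled CPM + 0.5), a scale that understates the changes of low genes. Values of p are two-sided, Benjamini-Hochberg adjusted over all genes, called under 0.05. Within a line, log2FC had a median standard error of 0.32. It rests on the spread pooled over all groups, so a gene has the same standard error in each line. Alternatives were edgeR 4.0.16, DESeq2 1.42.0, and limma-voom on the tags, each library left out, separate models of the lines, a replicate block, pseudocounts of 0.1 and 1, other scalings (unscaled CPM and median of ratios), and other filters (none, and a mean of 5 CPM). The procedure was tested on simulated data. Software was R 4.3.3 and Python 3.11.15 with matplotlib 3.10.9, scipy 1.17.1, pandas 2.3.3, and numpy 2.4.6.

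Genes named with values were those past the threshold, the 4 highest per line, up to 3 per line whose libraries lay outside all others, and the highest of each cluster; others, named after their values were seen, serve as examples. The HOX genes and the lists (cluster noncoding RNAs, TALE cofactors, Polycomb, MLL and H3K27 demethylases, retinoic acid, CDX and EVX, forebrain and midbrain factors, flanking genes, and markers) were chosen with earlier results of these data known. Some results on single genes are not reported here.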

Additional observations from a re-analysis of the deposited data

Results flagged for a closer look

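HOXB6 responded differently in the lines, with an adjusted p of 1.99e-05 in the limma F test of the 3 interaction contrasts. Its WWOX libraries were all above vec in U87MG and all below vec in T98G and DBTRG-05MG. HOXC8 was too low to be tested. Its WWOX mean was 0.592 CPM above vec in DBTRG-05MG and differed from vec by -1.42 CPM in T98G, without overlap in either line, and this difference between lines was not tested. The value in DBTRG-05MG rests on WWOX replicate 1, since its libraries measured 0.393, 0.129, and 0.395 CPM in vec and 1.83, 0.454, and 0.411 CPM in WWOX, and without that replicate the difference was 0.127 CPM.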

How the results depend on the processing

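HOXB6 in U87MG was called under all 35 alternatives (adjusted p from 3.4e-07 to 0.019). HOXB6 in T98G was called in 30 of 35 (0.00078 to 0.28), HOXB8 in T98G in 32 of 35 (4.1e-05 to 0.13), and the mean of HOXB8 in 29 of 34 (0.0025 to 0.28). With a pseudocount of 0.1 the HOX genes called were 2 in U87MG, 4 in T98G, 2 for the mean, and 3 for the difference between lines. With a pseudocount of 1 they were 1 in T98G, 1 in DBTRG-05MG, and 0 for the mean. With no filter they were 3 in U87MG, 1 in DBTRG-05MG, 2 for the mean, 2 for the difference, and 31 between the vec groups, and with a mean of 5 CPM 13 between the vec groups, since other genes are tested. CPM as deposited gave 2 for the mean. A model per line gave 2 in U87MG and 0 in T98G, with fewer samples. In U87MG edgeR and limma-voom gave 2 and DESeq2 3, for the mean DESeq2 gave 3, and for the difference edgeR and limma-voom gave 3 and DESeq2 4. The share of all genes called under each alternative is not given here, so these counts are not a result about HOX genes. For changes with no cause given, the cause was not tested.

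With libraries left out in turn, calls ranged from 1 to 3 in U87MG, 0 to 3 in T98G, 0 to 2 in U251MG, 0 to 1 in DBTRG-05MG, 0 to 6 for the mean, 1 to 3 for the difference, and 20 to 20 between vec groups. The U251MG library labelled WWOX replicate 2 gave the highest count for U87MG, U251MG, the mean, and the difference when left out, and T98G vec replicate 1 the lowest for T98G. The share of all genes called with each library left out is not given here, so these ranges describe the HOX calls only. HOXB2 in T98G ranged from -0.26 to 0.080 (0.0804 without T98G vec replicate 1), HOXB5 in T98G, which had 1 tag in that line, ranged from -0.0836 to 0, and the mean of HOXD10 was -0.10 with edgeR; these were the values that lost or changed their sign among 36 single values. With the replicate number as a block the calls were 1, 2, 0, and 0 in the 4 lines, 1 for the mean, 1 for the difference, and 20 between vec groups, so no count changed. Correlations of deviations between vec and WWOX libraries of the same number ran from -0.55 in DBTRG-05MG to 0.51 in T98G. Libraries of different numbers were not compared in this way, so whether the numbers pair the samples is not settled. Depth limits levels under 0.177 to 0.279 CPM.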

Other observations

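Several HOX genes below the filter had line patterns or vec and WWOX libraries apart, and they were chosen after their values were seen. HOXA10 measured 1.21 to 2.88 CPM in T98G and 2.58 to 4.95 CPM in DBTRG-05MG, and had 0 tags in all libraries of U87MG and U251MG. HOXD4, which lies inside the span of HOXD3, measured 1.38 to 4.59 CPM in T98G and had 0 tags in U87MG. HOXD13 measured 1.42, 1.85, and 2.17 CPM in U87MG vec and 0.551, 0.611, and 0.593 CPM in WWOX, and with no filter it was called there together with HOXA4 and HOXB6. HOXD1 in U251MG measured 0.568, 0.796, and 1.00 CPM in vec and 1.58, 4.29, and 4.46 CPM in WWOX. HOXA2 in DBTRG-05MG measured 1.90, 0.708, and 1.45 CPM in vec and 0.295, 0.389, and 0.206 CPM in WWOX, and with no filter it was called. HOXC8 in T98G measured 2.39, 3.01, and 1.79 CPM in vec and 1.02, 1.11, and 0.792 CPM in WWOX.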
